A study of Homo sapiens with 6 samples.

Results

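The genes described here were expressed in SK-N-BE(2)-C cells under the solvent and at least 6-fold lower under TSA, and the question put to the data was what E6R did to them. A gene was taken where its level was at least 10 CPM in both DMSO libraries and its higher TSA library was at most 1/6 of its lower DMSO library. Symbols with a dot or starting with LINC, mitochondrial genes, SLC6A2 and CYB561 were left out. The rule found 134 of the 36601 genes in the files, or 1.52% of the 8833 genes that met the DMSO minimum. A CPM is a gene's unique molecular identifiers (UMIs, tags that mark single captured RNA molecules) summed over the cells of a library, scaled to a library total of 1000000 UMIs. UMIs were not divided by gene length, so levels are compared between libraries and not between genes.

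SK-N-BE(2)-C is a single established human neuroblastoma line, and RNA of single cells was captured with Seq-Well S3, which isolates cells with barcoded beads in small wells. The 6 libraries were 2 from cells given DMSO, the solvent, 2 from cells given TSA and 2 from cells given E6R. TSA is the usual abbreviation of trichostatin A, which blocks the enzymatic activity of histone deacetylases (HDACs). E6R is a code name that the labels do not explain, and the series title concerns non-enzymatic inhibition of an HDAC complex without naming the compound. The sources used here give no dose or treatment time and do not say whether replicates were separate cultures, so the p-values measure only the spread between these libraries, which may be technical. The deposited files of TSA replicate 2 carry a tag, reWTA, that those of the other libraries lack and that the labels do not explain; without this library the rule found 161 genes in place of 134.

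HDACs take acetyl groups off histones and other proteins and work as subunits of large complexes with DNA-binding and scaffold proteins. Blocking the enzymes raises histone acetylation across the genome, and in many cell types some genes then rise while others, often highly transcribed genes of cell identity, fall. Neuroblastoma arises from sympathetic precursor cells, whose identity rests on a circuit of transcription factors that includes TBX2 and TFAP2B.

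Between 1861 and 3946 cells per library passed the cell filter, holding 4206366 to 26180262 UMIs. Mitochondrial UMIs made up 5.83% and 6.20% of the DMSO libraries, 6.08% and 9.71% of the TSA libraries, and 1.55% and 1.51% of the E6R libraries. The richest 1% of cells held 22.9% of the UMIs of E6R replicate 2. Pairs of libraries shared 11 to 58 cell barcodes, at most 2.11% of the smaller library. All 9 adrenergic neuroblastoma markers were detected in every group, with summed levels of 2550 to 3740 CPM over the 6 libraries. CHGA made up most of this sum under TSA, at 1758 and 1806 CPM. On plain CPM, PHOX2A, GATA3, ISL1, DBH, TH and MYCN were lower in both TSA libraries than in both DMSO libraries, while CHGA and HAND2 overlapped DMSO. The gap for ISL1 was small, with 60.9 and 67.8 CPM under DMSO and 58.3 and 56.8 under TSA. In the edgeR fit described below, which rescales the libraries, ISL1 stood at log2 0.15 under TSA. That fit called PHOX2A lower under TSA but not GATA3, ISL1, DBH or TH. T cell markers summed to at most 0.77 CPM and macrophage markers to 8.25 to 12.3. The 7 mesenchymal markers summed to 824 to 1330 CPM under DMSO, 1890 to 3030 under TSA and 1340 to 2060 under E6R. VIM made up most of each sum, with 1093 and 759 CPM under DMSO, 2618 and 1517 under TSA and 1657 and 1261 under E6R. FN1 and COL1A1 were also higher in both TSA libraries than under DMSO. CD44 went the other way, from 79.2 and 29.6 CPM under DMSO to 18.1 and 11.6 under TSA. COL1A2 and PRRX1 were lower in CPM too, but on very few UMIs. COL1A2 had 4 and 28 UMIs under DMSO and 3 and 2 under TSA, and PRRX1 had 6 and 3 against 1 and 8. The part of these marker sums and of the mitochondrial shares in the E6R results was not tested.

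Under DMSO the mean level of the 134 genes ran from 11.2 to 1108 CPM, with a median of 46.5; 70 genes lay under 50 CPM and 26 at 100 CPM or more. The DMSO mean was 6.25 to 168 times the TSA mean, with a median of 10.9. The ratio of 168 belongs to TMEM204, for which the TSA libraries held 3 and 0 UMIs. Next came CALHM2, a channel-family protein, with a DMSO mean 57.9 times the TSA mean. These TSA and DMSO values chose the genes and are given as a description, with no test. Just inside the threshold were ELAVL4 and EOGT, whose higher TSA library stood at 16.6% of the lower DMSO library, and ZNF114 at 16.5%. Just outside were POGLUT3 and HGSNAT at 16.7% and POGK at 16.9%.

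**Figure D1:**
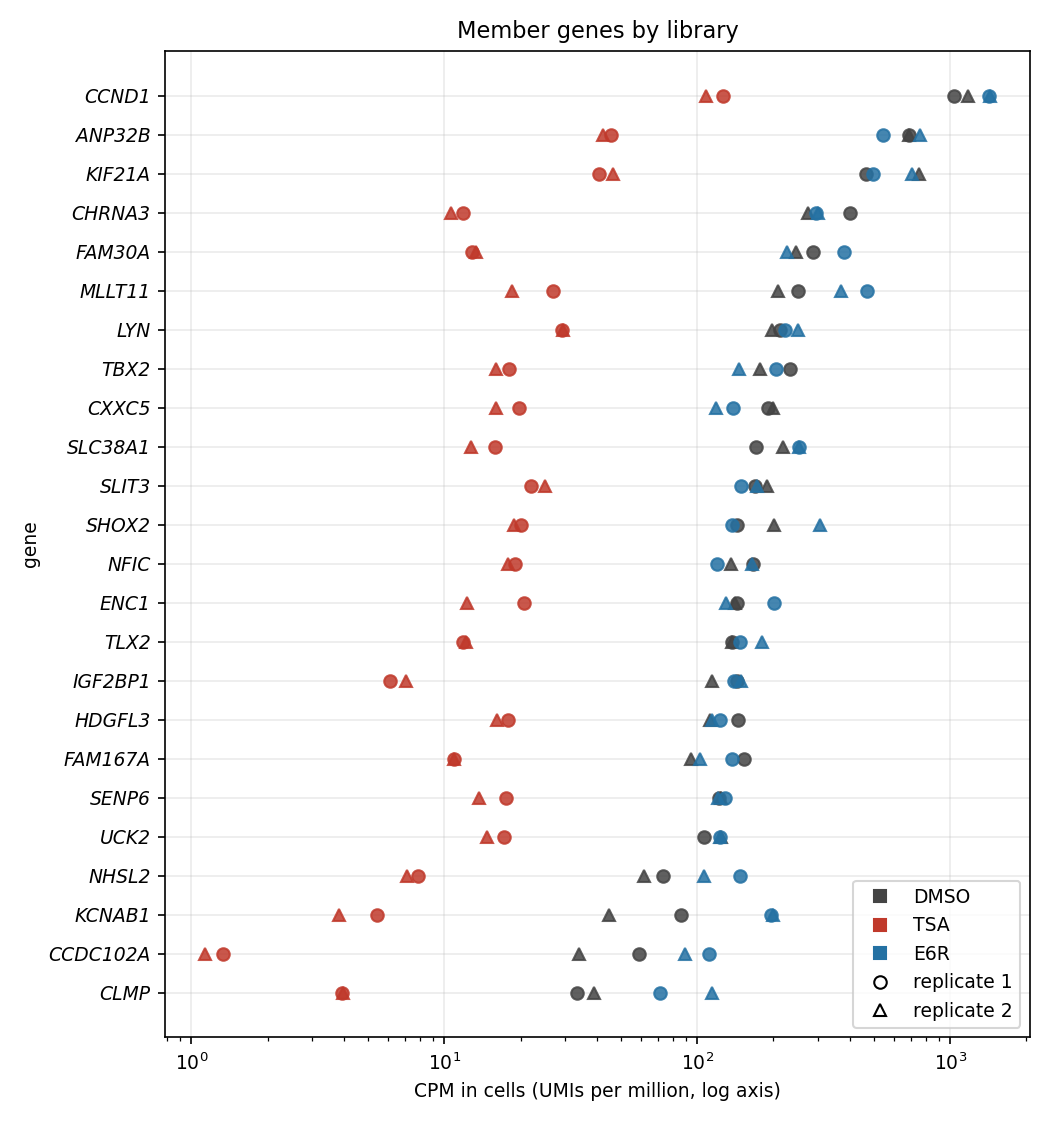
Levels of the named genes in each of the 6 libraries, in CPM on a log axis, 1 point per library. The TSA points lie apart from the rest by the rule that chose the genes. The E6R points lie among or near the DMSO points for most of these genes, above them for others, such as KCNAB1 and CLMP, and below them for CXXC5.

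Under E6R, the loss seen under TSA was not found in any of the 134 genes. With edgeR's quasi-likelihood test, 0 of the 134 genes differed from DMSO at an adjusted p of 0.05, against 0 of 16763 genes tested (0%). At an unadjusted p of 0.05 the count was 22 genes (16.4%), 19 higher and 3 lower, against 17.4% of all genes tested. The share in both directions together was therefore close to the background. The background share was not computed by direction or for the expressed genes alone. For each of the 134 genes the lower bound of the 95% interval of the log2 fold change lay above -2.58, the value of a 6-fold loss. The lowest bound was -1.49, for HDAC7, and 122 of the bounds lay above -1. On the upper side 47 bounds exceeded 1, and the highest was 2.83, for EDNRA, so gains of more than 2-fold were within the intervals of those genes. The DMSO libraries of this comparison also entered the choice of genes.

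**Figure D2:**
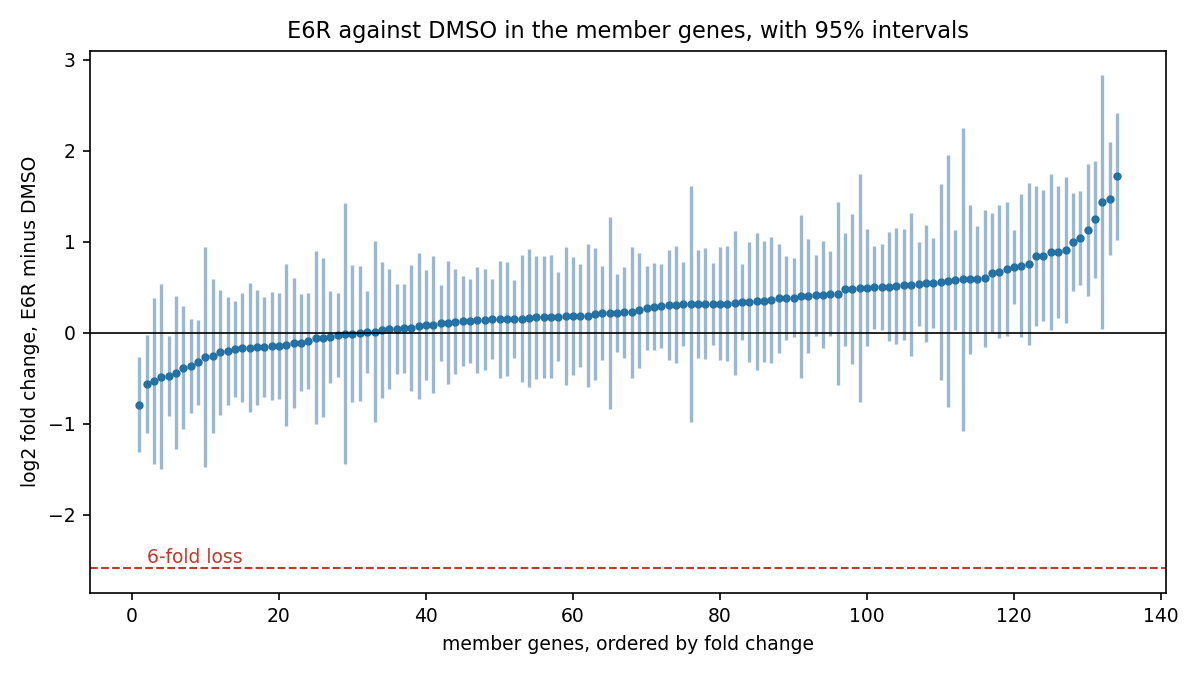
Fitted log2 fold change of E6R against DMSO for each of the 134 genes, ordered by its value, with its 95% interval; the dashed line marks a 6-fold loss at -2.58. Each interval ends above that line, and the points centre slightly above 0.

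The mean E6R level was 0.528 to 3.0 times the mean DMSO level, with a median of 1.07. It lay within 1.5-fold of DMSO for 114 genes (85.1%), beside 87.4% of the 8833 genes expressed under DMSO, and within 2-fold for 129. The median log2 fold change was 0.23 over the 134 genes, 0.16 over the expressed genes and 0.03 over all genes tested. Irrespective of sign, the median change was 0.32 on the log2 scale for the 134 genes and 0.29 for the expressed genes. The median for the 134 genes dropped to 0.09 when libraries were scaled by their total counts, which put the median of all genes at -0.10.

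Both E6R libraries lay above both DMSO libraries for 39 of the 134 genes (29.1%) on plain CPM, beside 17.4% of all genes tested and 23.8% of the expressed genes. Both lay below both DMSO libraries for 10 genes (7.46%), beside 28.5% and 20.7%, and the libraries overlapped for the other 85. With library sizes scaled by TMM, edgeR's normalization, the counts were 55 above (41%), beside 24.8% and 35% of the same backgrounds, and 6 below (4.48%), beside 22.6% and 12.9%. The 10 below on plain CPM were CXXC5, FAM217B, MARVELD1, NNT-AS1, PBDC1, OPRD1, LRP8, NFKB1, FBXW4 and RPS6KA4. Both E6R libraries lay above both TSA libraries for 134 of 134 genes, beside 38.6% of all genes tested; the TSA libraries chose the genes, so nothing is read from that count.

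**Figure D3:**
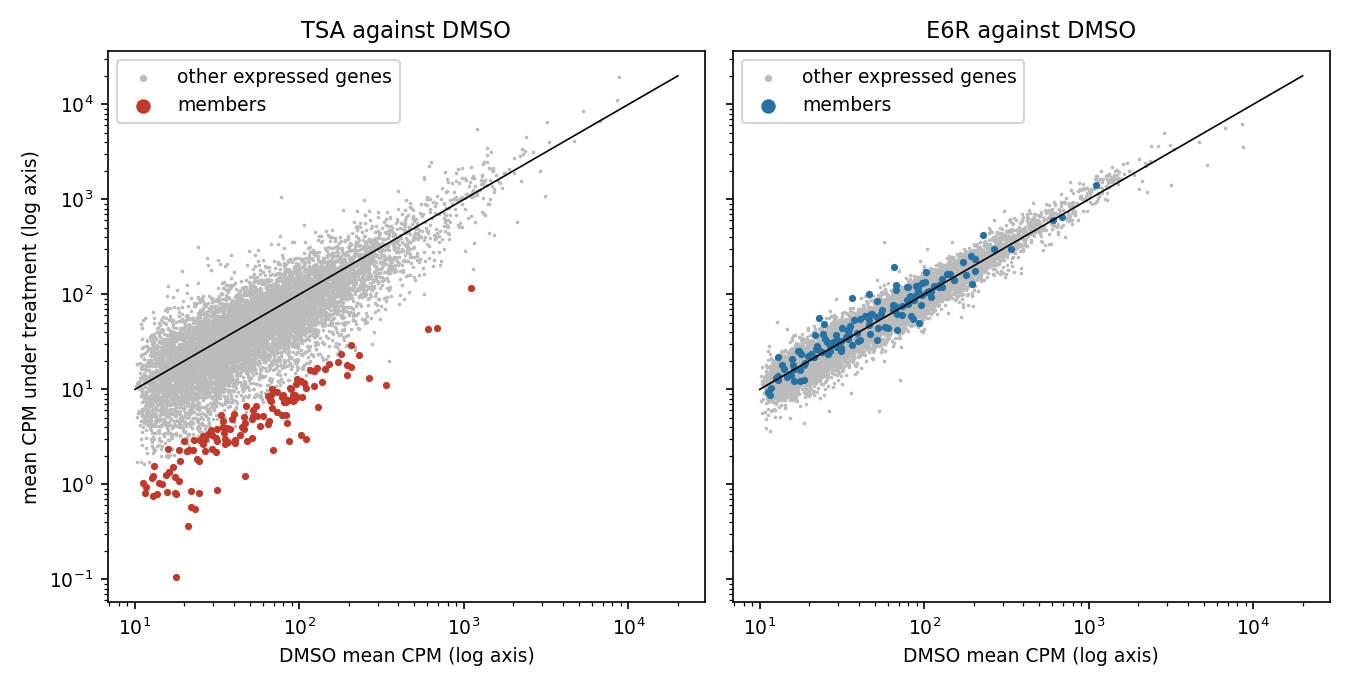
Mean level under TSA (left) and E6R (right) against the mean level under DMSO for the expressed genes, in CPM on log axes, with the 134 genes marked. Under TSA the marked genes lie far below the diagonal by the rule, while under E6R their ratio to DMSO has a median of 1.07.

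Among genes of growth and survival, the cell-cycle gene CCND1, which encodes cyclin D1, had 1036 and 1181 CPM in the DMSO libraries, 127 and 108 under TSA and 1422 and 1443 under E6R. Both E6R libraries lay above both DMSO libraries, but the fitted difference of 0.50 (SE 0.20) on the log2 scale did not pass the test, with an adjusted p of 0.254. UCK2, a kinase that phosphorylates uridine and cytidine, had 106 and 124 CPM under DMSO, 17.2 and 14.8 under TSA and 124 and 123 under E6R, overlapping DMSO. TYMS, the enzyme that makes thymidylate for DNA synthesis, had 79.9 and 79.3 CPM under DMSO, 9.10 and 8.33 under TSA, and 115 and 125 under E6R. Its DMSO libraries were close together and both E6R libraries were higher, by 0.72 (SE 0.18) on the log2 scale with an adjusted p of 0.205. The group of 11 such genes, which also held the survival genes BCL2 and CFLAR, had E6R to DMSO ratios of 0.815 to 1.51.

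The 9 chromatin proteins included ANP32B, a histone chaperone, with 689 and 685 CPM under DMSO, 45.5 and 42.4 under TSA and 543 and 757 under E6R. The E6R libraries fell on either side of the DMSO pair, and the interval of the log2 difference ran from -0.44 to 0.54. PHF19, a Polycomb-associated protein that binds methylated histone H3, had 79.9 and 98.7 CPM under DMSO and 99.5 and 147 under E6R, with 11.8 and 8.33 under TSA. HDAC7, a class II histone deacetylase, had 72.3 and 30.5 CPM under DMSO, 3.78 and 2.40 under TSA and 43.0 and 23.8 under E6R. Its DMSO libraries differed by more than 2-fold and the E6R libraries overlapped them, with an adjusted p of 0.605. HDAC7 was chosen after its values were seen.

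Transcription factors and DNA-binding proteins made up 22 of the 134 genes. TBX2, a T-box factor of the sympathetic circuit, had 232 and 178 CPM under DMSO, 18.1 and 16.1 under TSA and 204 and 147 under E6R. The E6R and DMSO libraries overlapped, and the interval of the log2 difference ran from -0.62 to 0.44. TFAP2B, an AP-2 factor of sympathetic development, had 86.1 and 118 CPM under DMSO, 3.22 and 3.45 under TSA and 119 and 226 under E6R. Both E6R libraries were higher, with a log2 difference of 0.89 (SE 0.31) and an adjusted p of 0.23. Neither of these circuit genes passed the test.

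CXXC5, a CpG-binding zinc finger protein, had 189.7 and 200.1 CPM under DMSO, 19.8 and 16.0 under TSA and 138 and 118 under E6R. Both E6R libraries were lower, with a log2 difference of -0.47 (SE 0.19) and an adjusted p of 0.266. SHOX2, a homeobox factor, had 144 and 202 CPM under DMSO, 20.2 and 18.9 under TSA and 138 and 306 under E6R, a wider spread that overlapped DMSO. NFIC, a nuclear factor I protein, had 166 and 136 CPM under DMSO, 19.0 and 17.8 under TSA and 119.6 and 164 under E6R. Its relative NFIB had 129 and 92.2 CPM under DMSO, 9.52 and 11.1 under TSA and 119.6 and 66.1 under E6R, so both overlapped. TLX2, a homeobox factor of neural crest derivatives, had 137 CPM in each DMSO library, 11.9 and 12.2 under TSA and 147 and 180.5 under E6R. Both E6R libraries of TLX2 were higher, with an adjusted p of 0.333. Over the 22 factors the E6R to DMSO ratio had a median of 1.05, and the highest was 1.70, for TFAP2B.

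The group of 9 genes for axon guidance, cell contact and motors held KIF21A, a kinesin motor, with 464 and 750.4 CPM under DMSO, 41.03 and 46.2 under TSA and 495 and 709 under E6R. The E6R libraries lay inside the DMSO range. SLIT3, a secreted ligand of Robo receptors, had 169 and 188 CPM under DMSO, 21.9 and 25.1 under TSA and 149 and 172 under E6R, again overlapping. ENC1, an actin-binding protein of the nervous system, had 144 and 141 CPM under DMSO, 20.7 and 12.3 under TSA and 201 and 129 under E6R. Its E6R libraries stood on either side of the DMSO pair. UNC5C, a netrin receptor, and ICAM2, an adhesion molecule, also overlapped DMSO, with E6R to DMSO ratios of 1.01 and 1.17.

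Of the receptors, channels and transporters, CHRNA3, a subunit of the nicotinic acetylcholine receptor of autonomic ganglia, had 400.3 and 273 CPM under DMSO, 11.9 and 10.6 under TSA and 295 and 300.3 under E6R. The E6R libraries lay within the DMSO range, and the interval of the log2 difference was -0.55 to 0.46. SLC38A1, a neutral amino acid transporter, had 170.5 and 218 CPM under DMSO, 15.9 and 12.8 under TSA and 252 in each E6R library. SLC10A4, a vesicle protein of the bile acid transporter family, had 93.2 and 90.5 CPM under DMSO, 9.17 and 5.93 under TSA and 126 and 119 under E6R. In both transporters the E6R libraries were the highest of the 6, with adjusted p of 0.266 and 0.253.

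IGF2BP1, an RNA-binding protein of fetal and tumour cells, had 144 and 115 CPM under DMSO, 6.09 and 7.06 under TSA and 140.1 and 149.5 under E6R. The neuronal RNA-binding protein ELAVL4 had 84.6 and 118 CPM under DMSO, 14.1 and 10.3 under TSA and 110.5 and 158 under E6R. Both overlapped DMSO. LYN, a Src-family kinase, had 212 and 198 CPM under DMSO, 29.3 and 29.6 under TSA and 223 and 251 under E6R, both above DMSO with a small difference of 0.34 (SE 0.18) on the log2 scale and an adjusted p of 0.368. SENP6, a SUMO protease, had 122 and 124 CPM under DMSO, 17.5 and 13.7 under TSA and 128 and 121 under E6R. KLHL42, an adaptor of a cullin ubiquitin ligase, had 92.7 and 80.9 CPM under DMSO and 91.8 and 82.0 under E6R, with 8.89 and 6.76 under TSA. For SENP6 and KLHL42 the E6R and DMSO libraries overlapped.

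The noncoding FAM30A had 287 and 245 CPM under DMSO, 12.9 and 13.3 under TSA and 379 and 226 under E6R. HDGFL3, a growth-factor-related protein, had 146 and 112 CPM under DMSO, 17.8 and 16.1 under TSA and 122 and 114 under E6R. FAM167A had 153 and 94.3 CPM under DMSO, 10.9 in each TSA library and 137 and 102 under E6R. All 3 overlapped DMSO under E6R. PRRT4, ADAMTS9, PLEKHO1, CYGB, SOGA1 and GALNT14 overlapped DMSO too, with E6R to DMSO ratios between 0.806, for SOGA1, and 1.38, for CYGB. GTF3C6 and RCN1 had both E6R libraries above DMSO, with ratios of 1.19 and 1.22. MARVELD1 had both below, with a ratio of 0.708.

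The 5 genes with the smallest unadjusted p for E6R against DMSO were all higher under E6R, and none passed after adjustment over all genes. KCNAB1, a beta subunit of voltage-gated potassium channels, had 86.5 and 44.6 CPM under DMSO, 5.39 and 3.83 under TSA and 195 and 198 under E6R. Its E6R libraries were close together and more than 2-fold above the higher DMSO library, with a log2 difference of 1.72 (SE 0.30) and an adjusted p of 0.205. CLMP, a junctional adhesion molecule, had 33.5 and 39.2 CPM under DMSO, 3.92 and 3.98 under TSA and 71.3 and 114 under E6R. NHSL2 had 73.0 and 61.8 CPM under DMSO, 7.84 and 7.13 under TSA and 147 and 106 under E6R. CCDC102A, a coiled-coil protein, had 58.7 and 34.2 CPM under DMSO, 1.33 and 1.13 under TSA and 111 and 89.2 under E6R. For these 3 the E6R libraries did not overlap DMSO, and the log2 differences were 1.48 (SE 0.27), 1.04 (SE 0.22) and 1.25 (SE 0.28). MLLT11, a small protein first found as a fusion partner in leukaemia, had 251 and 208 CPM under DMSO, 27.0 and 18.6 under TSA and 468 and 369 under E6R, a log2 difference of 1.0 (SE 0.23). CLMP, NHSL2, CCDC102A and MLLT11 each had an adjusted p of 0.205.

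The calls for the higher genes changed with the tool. DESeq2 called 7 of the 134 genes, all higher under E6R, where it called 2.15% of all genes tested and 1.5% as higher: KCNAB1, CLMP, MLLT11, NHSL2, CCDC102A, TYMS and TLR4. Without the low-count filter, edgeR called 13 of the 134 genes, all higher. Among all 31532 genes tested in that fit it called 3.47%, 720 higher and 375 lower. With the replicate number as a block it called KCNAB1 alone among the 134 genes, beside 0.113% of all genes tested. TLR4, the receptor for lipopolysaccharide, had 25.2 and 24.0 CPM under DMSO, 1.19 and 0.451 under TSA and 54.5 and 44.0 under E6R. Over all alternatives, the adjusted p of KCNAB1 ran from 1.47e-09 to 0.648 and its log2 difference from 1.37 to 2.38. The lowest E6R to DMSO ratio, 0.528, belonged to FAM217B, with 105 and 82.0 CPM under DMSO, 10.2 and 7.28 under TSA and 52.0 and 46.9 under E6R. FAM217B was lower in both E6R libraries, with a log2 difference of -0.79 (SE 0.23) and an adjusted p of 0.211. TYMS, TLR4 and FAM217B were described in full after their values were seen.

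Some of the genes differed between replicate libraries in both DMSO and E6R. Between the DMSO libraries 7 of the 134 genes differed by 2-fold or more (5.22%, beside 3.75% of the expressed genes). Of these 7, 6 differed by 2-fold or more in the same direction between the E6R libraries, where 14 of the 134 differed by as much. The share of such genes among the expressed genes was not computed. Replicate differences of DMSO and E6R correlated at 0.564 over 7515 genes and at 0.685 over the 134, so they were not particular to this set. BCL2, an inhibitor of apoptosis, had 68.9 and 27.5 CPM under DMSO and 92.3 and 30.8 under E6R. EDNRA, an endothelin receptor, had 34.0 and 12.1 CPM under DMSO, 82.4 and 30.3 under E6R, and 0.28 and 0.826 under TSA. PLXNA4, a semaphorin co-receptor, had 117 and 49.9 CPM under DMSO and 146 and 42.4 under E6R. These 3 and TMEM204 were higher in replicate 1, whereas FEV, an ETS factor of serotonergic neurons, was higher in replicate 2, with 22.6 and 64.9 CPM under DMSO and 27.9 and 91.7 under E6R. MARCH11, a membrane ubiquitin ligase, was higher in replicate 2 as well, with 11.2 and 52.0 CPM under DMSO and 19.1 and 68.7 under E6R. Genes described here were chosen after their values were seen.

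Some marker genes also differed between the replicates. The 3 endothelial markers, all detected in each group, summed to 4.38 to 55.4 CPM in the DMSO libraries and 1.91 to 65.8 in the E6R libraries, and the 3 fibroblast markers to 15.0 to 82.0 and 21.7 to 215. The fibroblast gene DCN had 63.7 and 2.09 CPM under DMSO and 165.5 and 1.95 under E6R, high in replicate 1 of both. PDGFRB, of the same list, was level under DMSO, with 6.42 and 6.68 CPM. The adrenergic markers did not move together. TH had 34.0 and 84.9 CPM under DMSO and 35.9 and 156 under E6R, high in replicate 2 of both. CHGA went the other way, with 1857 and 718 CPM under DMSO and 1305 and 1024 under E6R. GATA3 and MYCN were also higher in replicate 1 of both, and DBH, HAND2 and ISL1 in replicate 2 of both. The part of these differences in the split of BCL2, EDNRA, PLXNA4, TMEM204, FEV and MARCH11 was not tested.

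**Figure D4:**
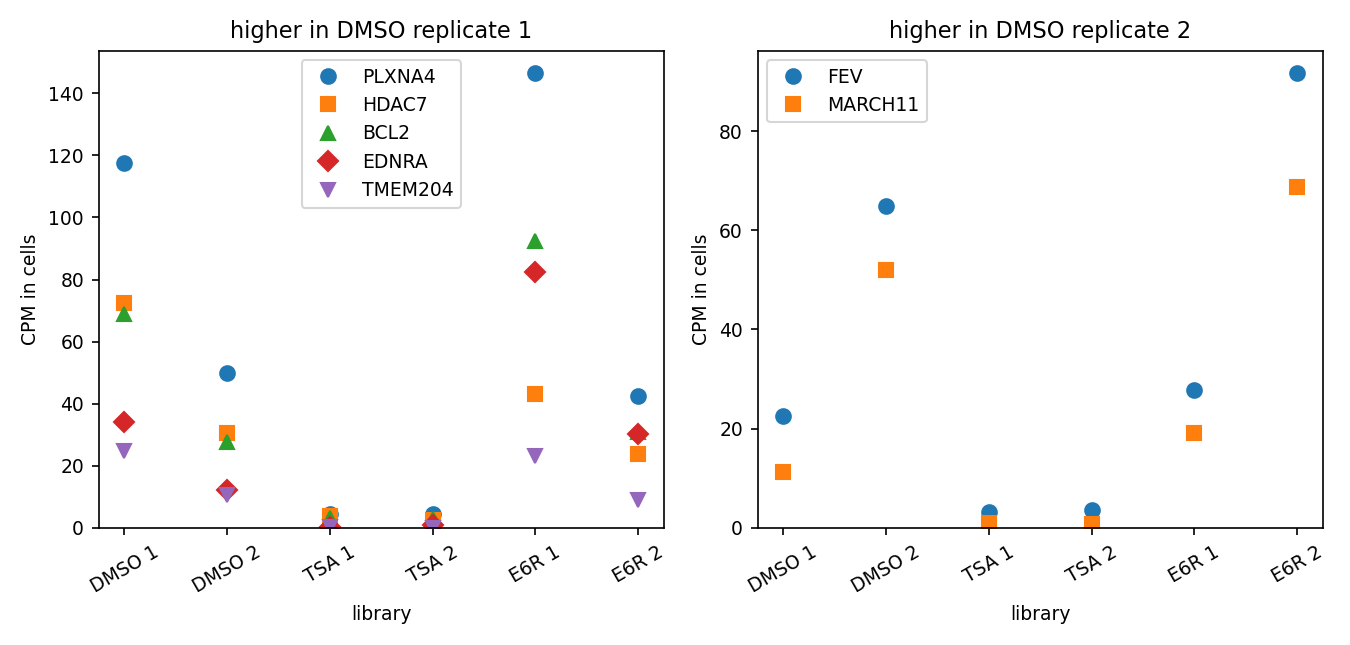
Levels in the 6 libraries, in CPM on a linear axis from 0, of the 7 genes that differed by 2-fold or more between the DMSO libraries: 5 higher in replicate 1 (left) and 2 higher in replicate 2 (right), 1 point per library. EDNRA goes from 34.0 to 12.1 CPM between the DMSO replicates and from 82.4 to 30.3 between the E6R replicates, while FEV goes the other way.

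The same UMIs were also counted per cell; the difference between TSA and DMSO follows from the rule and is given as a description. After each cell was thinned at random to 1000 UMIs, the 134 genes together gave a median of 10 UMIs per cell in each DMSO library, 1 in each TSA library, and 11 and 12 in the E6R libraries. No DMSO or E6R cell lacked UMIs of all 134 genes, against 39.4% and 42.9% of TSA cells. The TSA libraries had means of 1.09 and 0.901 such UMIs per cell. Random sampling at these means (a Poisson count) would leave 33.6% and 40.6% of TSA cells with none. Without thinning the shares of cells with none were 0% and 0.0319% in the DMSO libraries, 21.6% and 23.2% in the TSA libraries, and 0% and 0.0507% in those of E6R. Only 8 of 1852 and 7 of 2789 TSA cells reached the DMSO median. In E6R, 67.4% and 72.6% of cells did, beside 59.3% and 59.9% in DMSO. Cells with fewer UMIs than that, 2124 of DMSO, 1118 of TSA and 2410 of E6R, were not thinned and not counted.

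A CCND1 UMI was found in 58.8% and 65.9% of the thinned DMSO cells, 12.6% and 7.53% of the TSA cells and 68.1% and 71.1% of the E6R cells. Without thinning the shares were 69.1% and 69.9%, 32.4% and 20.8%, and 82.5% and 78.2%, at a median depth of 1054 to 1880 UMIs per cell. CHRNA3 was found in 27.0% and 22.9% of thinned DMSO cells, 1.13% and 0.896% of TSA cells and 20.7% and 23.3% of E6R cells. The E6R shares for CHRNA3 overlapped those of DMSO, as its CPM did. The libraries come from 1 cell line and no other cell type was called in them, so the share that free RNA alone would produce was not measured.

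**Figure D5:**
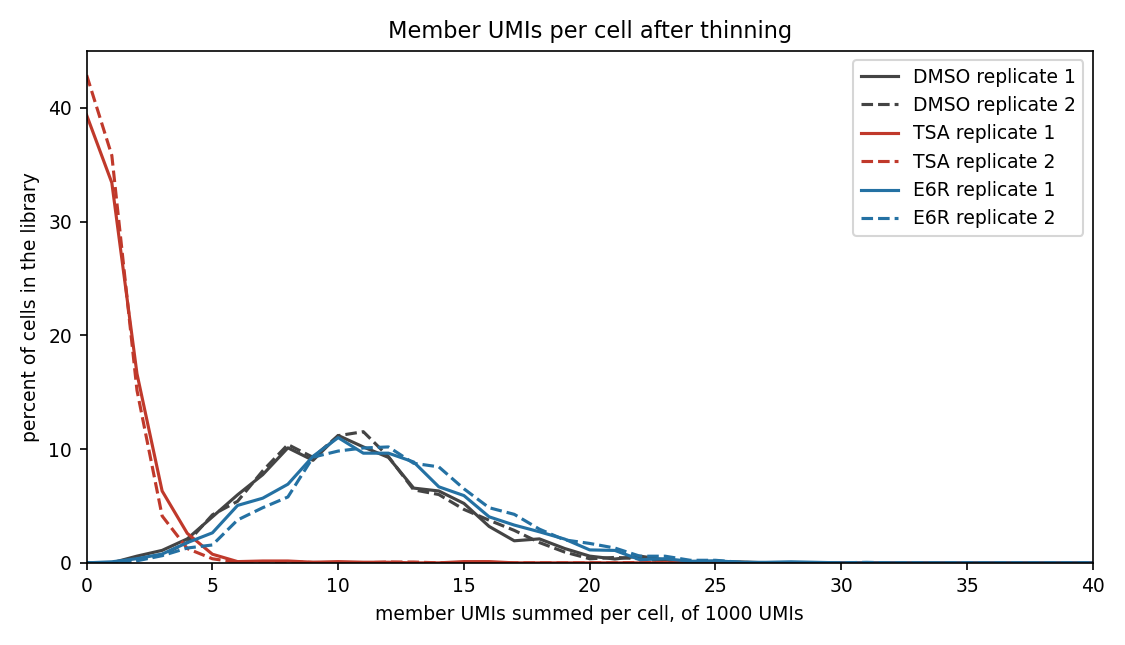
Percent of cells in each library by the number of UMIs from the 134 genes in a cell thinned to 1000 UMIs. The TSA libraries peak at 0 and the DMSO and E6R libraries overlap around their medians of 10 to 12.

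Barcodes below the cell filter, whose UMIs the rule did not use, come from the same 6 libraries as the cells and are no further replicates. There the 134 genes summed to 9476 and 10090 CPM in the DMSO libraries, 1111 and 922 in the TSA libraries and 11320 and 11810 in the E6R libraries. In cells the sums were 10860 and 10690, 1024 and 917, and 12060 and 12230. The median ratio of E6R to DMSO was 1.14 there and 1.07 in cells. Nothing is read from the low TSA sums, since the genes were chosen on these libraries.

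Gene lists from general knowledge of the field set the 134 genes beside their pathways. The lists were chosen with earlier results of these data known, so their counts under TSA and E6R are a description. Of 15 tested core transcription factors of the adrenergic state, 1 rose and 9 fell under TSA, beside 16.2% and 13.5% of all genes tested; TBX2 and TFAP2B are among these 9 and were chosen on this contrast. Of 14 tested genes for catecholamine synthesis, storage and uptake, 0 rose and 5 fell. Of 15 genes known to rise under HDAC enzyme inhibitors, 10 rose and 1 fell under TSA, led by TCN2, a vitamin B12 carrier, with log2 6.22, and DHRS2, a dehydrogenase, with log2 5.49. Of 13 nicotinic, muscarinic and adrenergic receptors 3 rose and 3 fell, CHRNA3 among the latter. Of 11 neurotrophin and glial-factor genes 1 rose and 2 fell, of 7 neuropeptide genes 1 rose and 1 fell, and of 3 endothelin genes EDNRA alone fell; CHRNA3 and EDNRA were also chosen on this contrast. Under E6R, edgeR called 0 genes of any of these lists. The unadjusted p was under 0.05 for 3 of 15 adrenergic factors, 5 of 14 catecholamine genes, 0 of 15 genes known to rise under HDAC enzyme inhibitors, 2 of 13 receptors, 2 of 11 neurotrophin genes, 4 of 7 neuropeptide genes and 1 of 3 endothelin genes, beside 17.4% of all genes tested. The median log2 fold change of the adrenergic factors was -1.79 under TSA and -0.09 under E6R, that of the catecholamine genes -1.36 and 0.57, and that of the genes known to rise under HDAC enzyme inhibitors 2.65 and 0.08. Over all genes tested the medians were -0.01 and 0.03.

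The 134 genes were spread over the genome. All were found in GENCODE 29, and 128 (95.5%) were protein coding, beside 98.6% of the expressed genes. Their median length was 48.2 kb, beside 34.3 kb. Chromosomes 13 and 21 held none of the genes, of 153 and 85 expressed genes, and chromosome 18 held the highest share, 4 of 113 (3.54%). Within 250 kb of each other lay CYGB and PRCD, TBX2 and TBX2-AS1, HOXC8 and HOXC4, B3GNT9 and NOL3, and IGHM and FAM30A. The first 2 pairs overlap on opposite strands, and 90 of the 134 genes overlap an annotated gene on the other strand. The share among the expressed genes was not computed, so nothing is read from that count. The authors' strand rule is not given in the sources used here, so reads of overlapping partners may not be separable.

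Promoters are printed for ANP32B, FAM30A, SLIT3 and SLC10A4, the genes with the highest DMSO level whose start could be matched between RefSeq and GENCODE within 100 bases; none of the 4 was called under E6R. Each sequence is the 250 bases upstream of the RefSeq start, 5′ to 3′ on the gene's strand, from RefSeq's GRCh38.p14. The windows are chr9:97983091-97983340 on the plus strand for ANP32B, chr14:105917729-105917978 on the plus strand for FAM30A, chr5:169301140-169301389 on the minus strand for SLIT3 and chr4:48483093-48483342 on the plus strand for SLC10A4. Capitals mark the GC box GGGCGG and the box CCAAT on either strand, with overlapping copies of a box counted separately.
ANP32B: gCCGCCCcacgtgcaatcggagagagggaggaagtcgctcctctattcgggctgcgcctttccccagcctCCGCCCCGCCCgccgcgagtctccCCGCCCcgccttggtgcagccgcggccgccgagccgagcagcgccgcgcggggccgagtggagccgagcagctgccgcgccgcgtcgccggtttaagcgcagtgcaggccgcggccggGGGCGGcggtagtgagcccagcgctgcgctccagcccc
FAM30A: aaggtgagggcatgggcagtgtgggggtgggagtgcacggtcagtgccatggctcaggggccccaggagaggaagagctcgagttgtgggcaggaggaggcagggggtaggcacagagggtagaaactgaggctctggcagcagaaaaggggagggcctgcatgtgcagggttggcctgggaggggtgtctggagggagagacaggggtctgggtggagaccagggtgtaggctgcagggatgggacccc
SLIT3: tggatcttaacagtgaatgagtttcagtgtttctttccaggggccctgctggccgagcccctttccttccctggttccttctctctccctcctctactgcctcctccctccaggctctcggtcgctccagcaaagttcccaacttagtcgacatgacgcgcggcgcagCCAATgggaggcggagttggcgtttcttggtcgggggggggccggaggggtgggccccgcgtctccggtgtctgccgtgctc
SLC10A4: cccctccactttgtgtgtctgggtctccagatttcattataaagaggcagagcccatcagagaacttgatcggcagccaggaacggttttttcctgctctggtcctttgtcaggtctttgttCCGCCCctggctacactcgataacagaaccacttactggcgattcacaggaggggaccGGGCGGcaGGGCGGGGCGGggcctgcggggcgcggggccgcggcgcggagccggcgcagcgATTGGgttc
ANP32B had 5 GC boxes and 38 CpG dinucleotides, SLC10A4 had 4 GC boxes, 1 CCAAT box and 19 CpG, SLIT3 had 1 CCAAT box and 16 CpG, and FAM30A had neither box and 2 CpG. Promoters of the same length held GGGCGG in 69.6% and CCAAT in 36.8% of the matched genes expressed under DMSO, and in 51.6% and 34% of all genes in the RefSeq table. These genes lost by rule under TSA therefore ranged from a CpG-rich to a CpG-poor window. Only 101 of the 134 genes matched a promoter, under the 80% set as a minimum, so a comparison of GC content or motifs over the 134 genes is void.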

How the data were processed

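The authors deposited raw UMI counts per gene and barcode, as whole numbers and without normalization. The reads were processed with STARsolo 2.7.9a and GRCh38, per the submitters' processing notes; no source used here gives their strand rule or barcode cut-off. Barcodes with at least 500 genes and at most 20% mitochondrial UMIs were kept as cells; no doublet caller was run. Cells are not replicates, so each library entered as the sum of its cells' counts. All 6 sums entered 1 fit of edgeR 4.0.16 (R 4.3.3), its quasi-likelihood test with TMM, filterByExpr and no term but group, with p-values adjusted by Benjamini-Hochberg over all genes tested and a threshold of 0.05. Standard errors came from the F statistic, and the common biological coefficient of variation was 0.288. Adjusted p-values in the text are edgeR's unless another tool is named. DESeq2 1.42.0 was an alternative. All 134 genes passed the low-count filter, and the fewest UMIs of such a gene in a DMSO library were 46. Cells were thinned with a fixed seed. The fit was also run on simulated data, but the outcome is not given here, so no statement on its power to detect changes is made.

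The genes, the lists and the tests were chosen with earlier results of these data known. The 40 genes highest under DMSO were named, except 1 that is not reported here, with full values for the highest 20 and for the 5 smallest p under E6R; others were chosen after their values were seen, as were the functional groups. An exact permutation test of 2 libraries against 2 cannot go below p = 0.333, so none is given.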

Additional observations from a re-analysis of the deposited data

How the results depend on the processing

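The rule found 134 genes; with totals scaled by TMM it found 87, with 1/5 in place of 1/6 203, with 1/8 83, and without 1 library 134 to 275 (205 when DMSO replicate 1 was left out, 275 when DMSO replicate 2 was and 209 when TSA replicate 1 was). For E6R against DMSO, edgeR called 0 of all genes tested, DESeq2 361, edgeR without the low-count filter 1095, with all deposited barcodes 1, without the 1% of cells with most UMIs 1 (an alternative chosen after seeing the data), without mitochondrial and ribosomal protein genes 1, and without 1 library 0 to 3 (3 without E6R replicate 1 and 3 without E6R replicate 2). Of the 134 genes, DESeq2 called 7 and edgeR without the filter 13, all higher under E6R. In both directions together these fits called 2.15% and 3.47% of the genes they tested, with 252 and 720 genes higher. The fit with the replicate number as a block called 19 genes (0.113%), of which 1 was in the set of 134: KCNAB1, with an adjusted p of 0.0225 and a range over alternatives of 1.47e-09 to 0.648. The labels do not say that the numbers mark a shared batch; differences between libraries 2 and 1 correlated across genes at 0.564 for DMSO and E6R, 0.242 for DMSO and TSA and 0.166 for TSA and E6R. The median log2 difference of the 134 genes was 0.228; it was 0.0945 with total counts only, 0.393 without the filter, 0.275 with a minimum of 300 genes per cell, 0.378 with all barcodes, 0.104 in cells thinned to 1000 UMIs, and 0.263 to 0.385 without 1 library. The cause of these changes was not tested. The count of genes with both E6R libraries above both TSA libraries was 134 in each alternative run for it, which the choice of genes on the TSA libraries largely fixes. Each edgeR alternative kept the lower 95% bound of all 134 above a 6-fold loss. For the 46 genes that the naming rule picks, 60 of the 828 values under 18 alternatives had the other sign, without a call in either fit. Each group has only 2 libraries, and the spread between them, more than counting error, limits these values.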
